A study of Mus musculus with 14 samples.

Results

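Otx2, Crx, Nrl, Nr2e3, Rorb, Thrb and Prdm1 encode transcription factors that start and steer photoreceptor development, and their mRNA was followed in Notch1+ cells and in whole retina of the mouse at E14 and P0. Each probe whose transcript identifier belongs to 1 of these genes was taken, whatever its values. This gave 10 probes for the 7 genes, out of 34312 mouse probes, and the 7 genes are among 16160 with a probe. Otx2 (mMC021812), Crx (mMC014865), Nrl (mMC026060) and Thrb (mMC025176) had 1 probe each, and Nr2e3 (mMA034938 and mMC010550), Rorb (mMC016017 and mMC020088) and Prdm1 (mMA034872 and mMC016788) had 2 each. The 2 probes of a gene read the same RefSeq transcript and are not independent samples.

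All animals were C57BL/6 mice carrying no transgene or treatment, embryos at day 14 or pups on the day of birth. Retinas were taken apart with papain, and cells bearing the Notch1 receptor on their surface were drawn out with a biotin-coupled antibody and magnetic beads, while the comparison samples were whole retinas of the same stage. At E14 there were 3 samples of Notch1+ cells and 3 of whole retina, and at P0 there were 4 and 4. Each sample went onto 1 array, stained with a single dye. Each preparation of Notch1+ cells pooled the eyes of many animals, so such a sample is a pool and not an animal. How many animals went into a whole retina sample is not stated. A reading counts here as above background if the spot's median was more than 2 background SDs over the local background, and the test took in the 13683 probes with such readings on 3 or more arrays. Of the 10 probes, 6 were tested. The 2 probes of Nr2e3, the probe of Thrb and the Prdm1 probe mMA034872 were not.

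In the mouse retina, photoreceptors arise from dividing progenitors in a fixed order, cones in the embryo and most rods around and after birth. Otx2, a homeodomain factor, is switched on as a progenitor leaves the cell cycle and is needed for photoreceptors and bipolar cells, and Prdm1 (Blimp1) holds such cells to the photoreceptor rather than the bipolar path. Crx, a homeodomain factor closely related to Otx2, drives the genes of the outer segment and of phototransduction. Rorb, an orphan nuclear receptor, acts upstream of Nrl, the leucine zipper factor that turns a precursor into a rod. Nr2e3, an orphan nuclear receptor under Nrl, represses cone genes, and Thrb, a thyroid hormone receptor, directs cones to express the middle-wavelength opsin.

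Otx2, Crx and Nrl were lower at E14 than at P0 in whole retina, and the DNA just upstream of Crx and Nrl is shown. That of Otx2, which has 4 annotated starts, is not printed. That of Rbp3 is shown because it had the largest difference between the stages in whole retina among the rod genes described below. Each sequence is the 250 bases before the annotated start, on the strand of the gene, from RefSeq on the GRCm38.p6 build. Crx (minus strand) is chr7:15879956-15880205, Nrl (minus strand) is chr14:55524253-55524502 and Rbp3 (plus strand) is chr14:33953753-33954002. Capitals mark the motif TAATCC, bound by Otx2 and Crx, or its complement GGATTA.
Crx: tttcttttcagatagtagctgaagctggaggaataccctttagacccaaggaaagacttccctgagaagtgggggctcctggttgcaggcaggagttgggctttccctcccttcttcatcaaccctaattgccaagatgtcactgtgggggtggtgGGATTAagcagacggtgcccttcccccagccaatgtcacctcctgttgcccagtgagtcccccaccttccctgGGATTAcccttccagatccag
Nrl: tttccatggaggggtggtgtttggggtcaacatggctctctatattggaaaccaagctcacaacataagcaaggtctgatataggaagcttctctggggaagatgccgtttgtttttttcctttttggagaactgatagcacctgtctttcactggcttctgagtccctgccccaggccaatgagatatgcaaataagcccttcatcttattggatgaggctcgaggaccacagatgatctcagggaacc
Rbp3: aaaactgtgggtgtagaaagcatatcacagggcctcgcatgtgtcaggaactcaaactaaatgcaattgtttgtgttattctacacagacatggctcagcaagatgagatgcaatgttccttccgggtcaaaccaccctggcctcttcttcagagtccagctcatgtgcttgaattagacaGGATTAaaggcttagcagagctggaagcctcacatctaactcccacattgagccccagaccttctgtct
The Crx sequence holds the motif at 2 places, beginning 94 and 21 bases before the start. The Rbp3 sequence holds it at 69 bases before the start. The 250 bases before the Nrl start hold no such letters, which says nothing of other positions or of other factors. All 7 genes had an annotated start in the table, 12 starts in all. Besides Crx, the motif was found before 1 of the 4 starts of Otx2 and 1 of the 2 starts of Thrb, so 3 of the 12 windows held it, and TGCTGAC, a motif of Nrl, was found before 1 of the 2 starts of Rorb. Over all 32851 windows of this length, 6.25% held TAATCC and 3.81% held TGCTGAC, on either strand. A match of letters is a description of the sequence and not a binding site.

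Between 9332 and 13547 probes were above background per array. The sort was read on Notch1 itself, which was higher in Notch1+ cells at both stages (log2 fold change 1.49 and adjusted p = 0.0174 at E14, 1.39 and 0.00422 at P0). Notch1 is 1 of 12 progenitor markers, all tested, and the list as a whole was not higher. At E14, 2 of the 12 were higher and 0 lower (median -0.59, against 0.01 for all tested probes). At P0, 2 were higher and 1 lower (median -0.22, against 0.01). Of 12 tested ganglion cell markers 8 were lower in Notch1+ cells at E14 and 10 at P0. Of 10 tested amacrine and horizontal cell markers 2 were lower at E14 and 6 at P0. As a base for the marker counts, higher calls made up 2.67% of all tested probes at E14 and 8.97% at P0. Lower calls made up 3.24% at E14 and 10.7% at P0. Of 9 tested endothelial markers 3 were higher in Notch1+ cells at P0, and the summed intensity of all 10 on the list was 3714 to 7097 there against 2388 to 3061 in whole retina. At E14 none of the 9 was called, but the sum was 1718 to 4291 in Notch1+ cells and 1485 to 1584 in whole retina, without overlap, and 5 of the 9 were above background in only 1 of the groups. The part of these cells in the results below was not tested. The 14 arrays were scanned on 3 days. All 6 arrays of E14 were scanned on 1 of them, while the P0 Notch1+ and P0 whole retina arrays each had a day of their own, so at P0, and between the stages, day and group cannot be told apart. Here and below a probe is called at an adjusted p under 0.05 (limma, Benjamini-Hochberg over all 13683 probes). Intensities are the normalized linear values with SD over arrays, and fold changes are on the log2 scale with their SE.

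At E14, Notch1+ cells held more Otx2 mRNA than whole retina did. Its intensity in E14 Notch1+ cells was 25458, 18273 and 25669 on the 3 arrays, against 6676, 7481 and 8460.5 in E14 whole retina. At P0 it was 35937, 32802, 33743 and 37307 in Notch1+ cells, against 28786, 28240, 35084 and 35085 in whole retina. The lowest E14 Notch1+ array was thus above the highest E14 whole retina array, whereas at P0 the groups overlapped. The group means were 23130 ± 4211 (n = 3) in E14 Notch1+ cells, 7539 ± 893.9 (n = 3) in E14 whole retina, 34950 ± 2049 (n = 4) in P0 Notch1+ cells and 31800 ± 3801 (n = 4) in P0 whole retina. This E14 difference was 1.61 (SE 0.18, adjusted p = 0.000291), or 3.05-fold, and it was called under each other setting tried except the methods' own test after adjustment (adjusted p = 0.0642). In such samples of many cells, more Otx2-expressing cells and more Otx2 RNA per cell cannot be told apart.

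At P0 Otx2 differed between the 2 kinds of sample by 0.14 (SE 0.155, adjusted p = 0.567, 95% interval -0.191 to 0.475). This value depends on how the arrays are scaled: it was 0.33 with cyclic loess, -0.41 in the authors' own scaled values and -0.78 (adjusted p = 0.00476) when arrays were scaled to 1 median, which itself moved the median of all tested probes to -0.37. The raw foreground of the probe was 18940 to 26401 in P0 Notch1+ cells and 34089 to 52308 in P0 whole retina, so the order of the raw readings was the opposite of the order after normalization. The difference between the stages was tested directly. The Notch1+ to retina ratio of Otx2 was larger at E14 than at P0 by 1.47 (SE 0.24, adjusted p = 0.00852), and this was called under all 10 other settings tried (1.303 to 2.243).

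Otx2 rose between the stages in whole retina, being lower at E14 (-2.08, SE 0.17, adjusted p = 6.76e-06), a 4.21-fold difference. In Notch1+ cells it was lower at E14 (-0.61, SE 0.17, adjusted p = 0.0332), with no overlap of the groups. That call was lost without E14 Notch1+ replicate 2 (adjusted p = 0.139) or P0 Notch1+ replicate 1, 3 or 4 (0.0627, 0.0542 and 0.0733). It was kept under 4 of 12 other settings with an adjusted p. Scaled to a common 75th percentile the value was -0.157 (adjusted p = 0.639), in the authors' own scaled values -0.127 (adjusted p = 0.789), and scaled to 1 median 0.046 (adjusted p = 0.891), in the opposite direction. Otx2 is also a gene of the retinal pigment epithelium. None of 15 pigment epithelium markers was above background on any E14 Notch1+ array, whereas 1 to 4 were on the E14 whole retina arrays, 0 to 2 on the P0 Notch1+ arrays and 4 to 7 on the P0 whole retina arrays. Their summed intensity was 1244 to 1260 in E14 Notch1+ cells, 1475 to 1894 in E14 whole retina, 1278 to 1575 in P0 Notch1+ cells and 1710 to 2161 in P0 whole retina. Of the single markers, Rpe65 and Tyr were above background on no array. Mitf was above background on 3 of 3 E14 and 4 of 4 P0 whole retina arrays and on no Notch1+ array. Dct, Pmel and Krt18 were above background on 4 of 4 P0 whole retina arrays. The part of pigment epithelium in the Otx2 values was not tested.

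**Figure D1:**
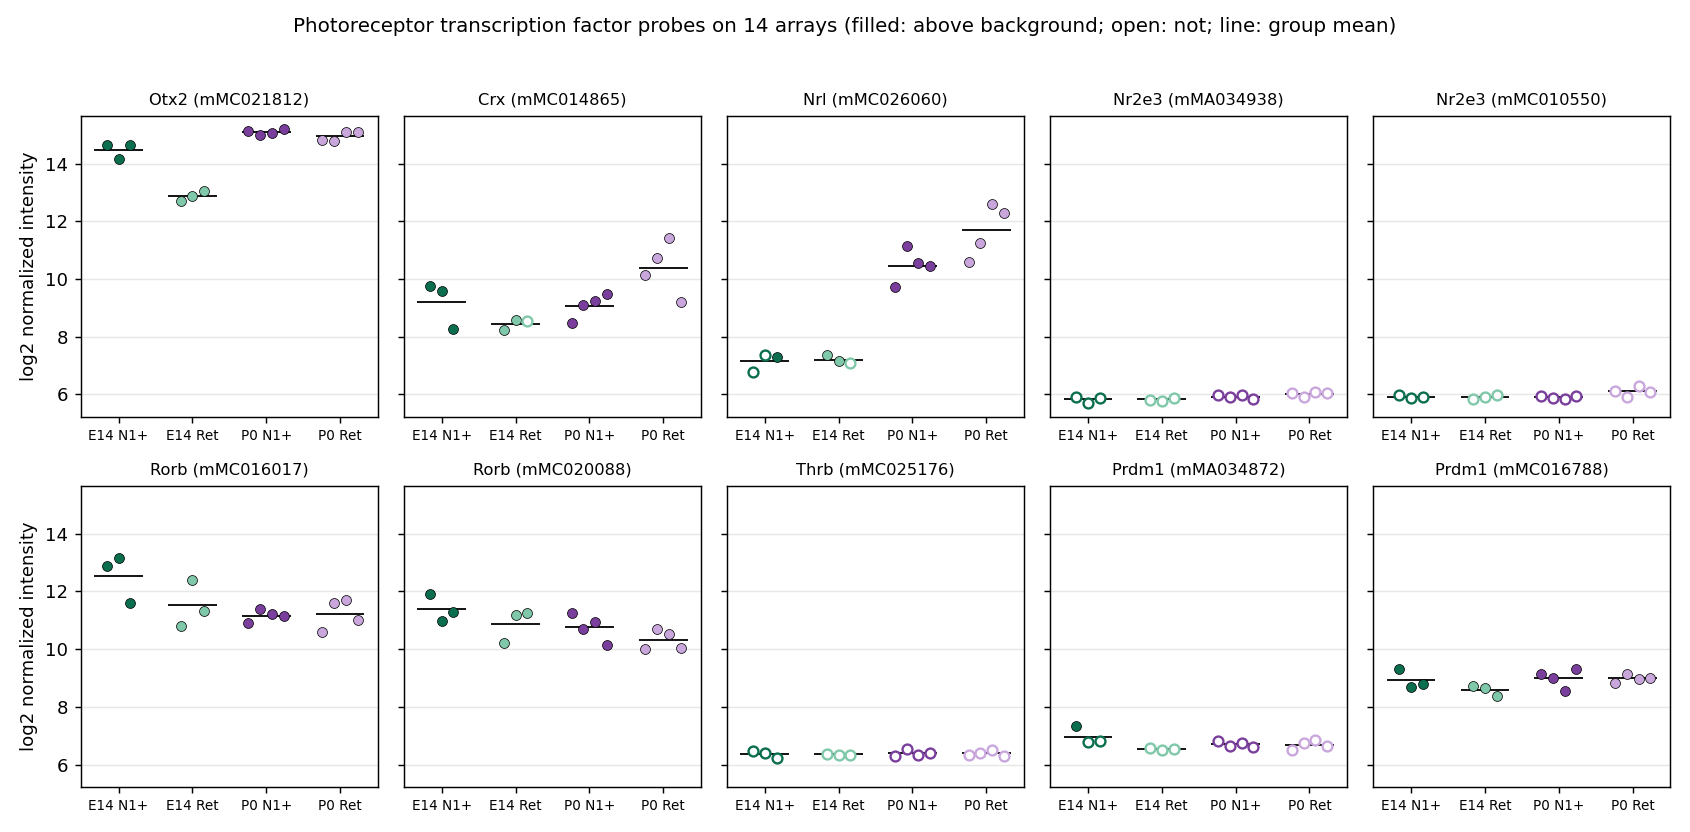
Log2 normalized intensity (y axis) of the 10 probes on each of the 14 arrays, in 4 groups (x axis; N1+ is Notch1+ cells, Ret is whole retina), with filled points above background, open points not, and a line at the group mean. Otx2 in E14 whole retina lies below its other groups, Nrl is near background at E14 and high at P0, and Nr2e3 and Thrb have no filled point.

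Prdm1, the repressor that follows Otx2 in precursors, was called in no comparison. Its tested probe mMC016788 read 640, 413 and 440 in E14 Notch1+ cells and 423, 403 and 335 in E14 whole retina, and 371 to 640 over the 8 P0 arrays. The groups within each stage overlapped. Notch1+ cells differed from whole retina by 0.34 at E14 (95% interval -0.137 to 0.823, adjusted p = 0.458) and by 0.02 at P0 (-0.396 to 0.435, adjusted p = 0.957). Scaled to 1 median, the P0 value was -0.63 (adjusted p = 0.0328). Its 3 E14 whole retina arrays lay below its 4 P0 whole retina arrays (455 to 565), a difference that was not called (-0.40, SE 0.21, adjusted p = 0.234). The other probe, mMA034872, was above background on 1 of the 14 arrays, E14 Notch1+ replicate 1, at 160.1.

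Rorb, the nuclear receptor upstream of Nrl, was above background on all 14 arrays with both probes, but 1 of its probes was called between the stages and the other was not. With mMC016017 the intensity was 7553, 9052 and 3080 in E14 Notch1+ cells and 1803, 5401 and 2560 in E14 whole retina. At P0 it was 1919, 2699, 2367 and 2265 in Notch1+ cells and 1557, 3115, 3327 and 2062 in whole retina. Every E14 Notch1+ array was above every P0 Notch1+ array, and E14 Notch1+ replicate 3 was the closest to them. The probe was higher at E14 in Notch1+ cells by 1.37 (SE 0.41, adjusted p = 0.0478), but it was called with only 1 of the 7 arrays of the comparison left out, E14 Notch1+ replicate 3 (adjusted p = 0.0152), and with each of the others left out it was not (0.065 to 0.174).

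With the second Rorb probe, mMC020088, the intensity was 3884, 1996 and 2523 in E14 Notch1+ cells and 2413, 1642, 1960 and 1133 in P0 Notch1+ cells, and these overlapped. Its difference was 0.65 (SE 0.32, adjusted p = 0.219). Over the 14 arrays the 2 probes correlated at r = 0.62, as a description over arrays of 4 groups. Neither probe was called between Notch1+ cells and whole retina. At E14 the differences were 1.03 (SE 0.44, adjusted p = 0.217) and 0.51 (SE 0.35, adjusted p = 0.481), and at P0 they were -0.065 (SE 0.382, adjusted p = 0.929) and 0.44 (SE 0.30, adjusted p = 0.339).

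Crx was low and variable at E14. It read 867, 767 and 311 in E14 Notch1+ cells and 299, 381 and 374 in E14 whole retina, where 2 of the 3 arrays were above background. At P0 it read 355, 552, 598 and 708 in Notch1+ cells and 1124, 1682, 2744 and 588 in whole retina. Among the P0 whole retina arrays, replicates 1 to 3 were above every Notch1+ array and replicate 4 was among them. At E14 Crx differed by 0.76 (SE 0.49, adjusted p = 0.454), with a 95% interval from -0.30 to 1.82. At P0 Crx was lower in Notch1+ cells (-1.3, SE 0.425, adjusted p = 0.0463), a 2.46-fold difference.

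This P0 call for Crx lay at the edge of the threshold. It was lost when any of 7 of the 8 P0 arrays was left out (adjusted p = 0.0583 to 0.13) and was kept only without P0 whole retina replicate 4 (adjusted p = 0.0103). It was kept under 7 of 12 other settings with an adjusted p. The value depended on the scaling: it was -1.99 (adjusted p = 0.00254) with 1 median, -1.67 (0.0107) with a common 75th percentile and -1.82 (0.00851) in the authors' own scaled values. Among the settings that lost it was the mark of a second dip as a covariate (adjusted p = 0.142). That mark is carried by 4 of 4 P0 whole retina arrays and 1 of 4 P0 Notch1+ arrays. Between the stages, Crx in whole retina was lower at E14 (-1.92, SE 0.46, adjusted p = 0.0139), a 3.78-fold difference with no overlap of the groups. This call was kept under 11 of 12 other settings with an adjusted p (highest 0.108). Without E14 whole retina replicate 1 its adjusted p was 0.055. In Notch1+ cells the difference was 0.14 (SE 0.46, adjusted p = 0.878), with a 95% interval from -0.85 to 1.13. The difference of the Notch1+ to retina ratio between the stages was 2.06 (SE 0.65, adjusted p = 0.113), and 2.45 (adjusted p = 0.0478) without P0 whole retina replicate 4.

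Nrl, the rod determinant, had the largest difference between the stages among the 6 tested probes. At E14 it read 109.7, 163.6 and 158.5 in Notch1+ cells, with replicate 3 above background, and 164.3, 143.6 and 137.3 in whole retina, with 2 of 3 arrays above background. At P0 it read 843, 2272, 1514 and 1387 in Notch1+ cells and 1544, 2455, 6203 and 5011 in whole retina, all above background. Every P0 array of either kind was above every E14 array. Nrl was lower at E14 in Notch1+ cells (-3.32, SE 0.42, adjusted p = 0.00042) and in whole retina (-4.48, SE 0.42, adjusted p = 2.28e-05), which are fitted folds of 9.99 and 22.3. Because the E14 values sit at the lower edge of what the arrays resolve (the lowest intensity above background was 130 to 147 on these 6 arrays), these folds carry the uncertainty of a reading near background. Both were called under all 12 other settings whose p was adjusted, and with each array left out.

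Between Notch1+ cells and whole retina Nrl was not called at E14, at -0.06 (SE 0.45, adjusted p = 0.967, 95% interval -1.04 to 0.91). At P0 it was lower in Notch1+ cells (-1.22, SE 0.39, adjusted p = 0.0436), a 2.33-fold difference with overlapping groups. That call was lost without P0 Notch1+ replicate 1, 3 or 4 (adjusted p = 0.122, 0.0715 and 0.0879) or P0 whole retina replicate 3 or 4 (0.124 and 0.121), and with the mark of a second dip (0.293). It was kept under 8 of 12 other settings with an adjusted p. Scaled to 1 median the value was -2.03 (adjusted p = 0.00113), to a common 75th percentile -1.71 (0.00626), and in the authors' own scaled values -1.735 (0.0106). The ratio of Notch1+ cells to whole retina differed between the stages by 1.155 (SE 0.60, adjusted p = 0.34).

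Nr2e3 and Thrb were not above background on any of the 14 arrays. The Nr2e3 probes read 52.1 to 67.9 (mMA034938) and 57.8 to 79.3 (mMC010550). The Thrb probe read 75.1 to 93.5. Neither gene could be measured at these stages with these probes, and no fold is given.

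Set side by side, the called differences were few. For Notch1+ cells over whole retina at E14, 1 of the 6 tested probes was called (Otx2, higher), where 5.91% of all tested probes were called. At P0, 2 of 6 were called (Crx and Nrl, lower), against 19.7% of all tested probes. For E14 over P0 in Notch1+ cells, 3 of 6 were called (Otx2 and Nrl lower, Rorb mMC016017 higher), against 11.1%. For E14 over P0 in whole retina, 3 of 6 were called (Otx2, Crx and Nrl, all lower), against 14.3%. For the difference of the Notch1+ to retina ratio between the stages, 1 of 6 was called (Otx2), against 2.47%. With 6 probes no share of calls can be read closely, and the 4 comparisons of groups share samples. Scaled to 1 median, 7.81% of all calls at P0 were of higher probes, compared with 45.5% in the values reported, and for E14 over P0 in Notch1+ cells 83.6% compared with 46.6%.

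**Figure D2:**
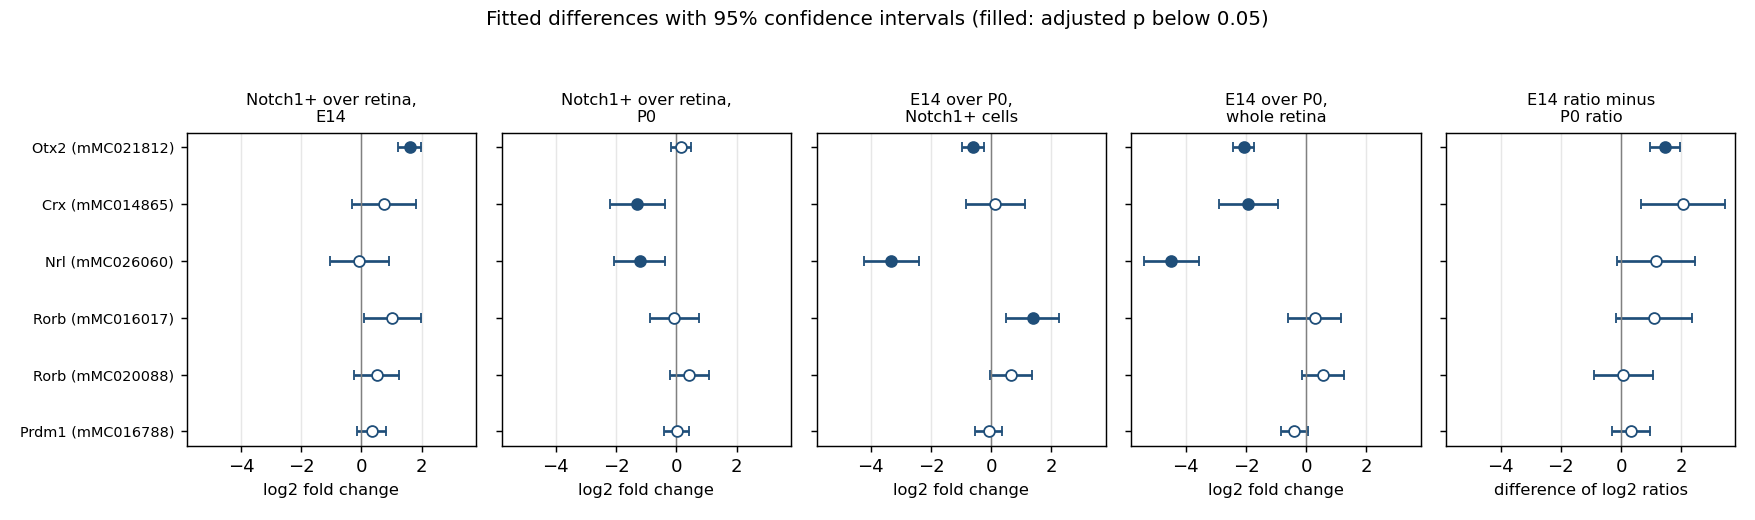
Fitted difference on the log2 scale (x axis) for each of the 6 tested probes (y axis) in the 4 comparisons of groups and in the difference of the Notch1+ to retina ratio between the stages, with 95% confidence intervals and filled points for an adjusted p below 0.05. Otx2 is 1.61 higher in Notch1+ cells at E14 and 0.14 at P0, and Nrl lies lowest in both comparisons of E14 with P0.

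The genes that these factors act on were read in the same comparisons. Of a list of 36 rod and shared photoreceptor genes, 34 had a probe and 23 were tested. At E14 none of the 23 was called between Notch1+ cells and whole retina (median -0.03, against 0.01 for all tested probes), and 12 of them were above background in neither group. Of all tested probes 5.91% were called there. The methods' test without adjustment called 2 of the 23, both lower, and limma on the authors' own scaled values called 3, all lower. At P0, 15 of the 23 were lower in Notch1+ cells and 0 higher, with a median of -1.75 against 0.01 for all tested probes. Of all tested probes 10.7% were lower there. Because 7 of the 23 were above background at P0 in whole retina but on no Notch1+ array, their folds are bounds, and with those bounds the median was -1.26. A gene that was tested only because whole retina at P0 showed it had to differ, so the count carries no more than its members' own values. With each P0 array left out, 15 or 16 of the 23 were lower. With probes above background on at least 7 arrays only, 12 were tested and 6 were lower.

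The 4 rod genes with the largest P0 differences were Rbp3, Pde6g, Sag and Prph2. Rbp3, the retinoid carrier of the space around photoreceptors, measured 861.7 ± 250.7 in P0 Notch1+ cells and 5077 ± 1357 in P0 whole retina, a difference of -2.56 (SE 0.22, adjusted p = 8.48e-06). Pde6g, an inhibitory subunit of the rod phosphodiesterase, measured 143.1 ± 12.34, with 1 of 4 arrays above background, and 1004 ± 657.2 (-2.54, SE 0.37, adjusted p = 0.00039). Sag, rod arrestin, measured 186.2 ± 19.82 and 937 ± 415.4 (-2.215, SE 0.27, adjusted p = 8.68e-05). Prph2, a structural protein of the disc rim, measured 194.3 ± 35.53, with 2 of 4 arrays above background, and 913.4 ± 496.1 (-2.07, SE 0.32, adjusted p = 0.000549). These 4 genes were called with each array left out and under each other setting that tested them.

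Between the stages, 16 of the 23 rod genes were lower at E14 in whole retina and 7 of the 23 in Notch1+ cells, with 0 higher in either. Of all tested probes 7.67% and 5.92% were lower. Above background at only 1 stage were 12 of the 23 in whole retina (median -2.002, and -1.62 with bounds). There were 10 such genes in Notch1+ cells (-0.459 and -0.283). Cngb1, Guca1a, Mpp4, Pde6b and Rcvrn were above background on P0 whole retina arrays alone. They were tested only because that group showed them, so they had to differ. The whole retina count thus carries no more than its members' own values. Without E14 Notch1+ replicate 2, 4 of the 23 were lower in Notch1+ cells. In whole retina Rbp3 was lower at E14 (-4.67, SE 0.24, adjusted p = 1.35e-07) and Rom1, a partner of Prph2, was lower too (-3.36, SE 0.22, adjusted p = 1.46e-06). Prph2 and Sag, above background on no E14 whole retina array, were at least 6.01-fold and 6.41-fold lower there (adjusted p = 2.11e-05 and 1.13e-05). In Notch1+ cells Rbp3 was lower at E14 (-2.32, SE 0.24, adjusted p = 7.94e-05) and Tulp1, a protein of transport to the outer segment, was lower (-1.49, SE 0.37, adjusted p = 0.021), the latter called in 11 of 19 other settings and arrays left out.

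The upstream sequences of this list were searched for the same motifs. The list was drawn up from genes that these factors act on, so its share of their motifs is no independent result. Of its 36 genes, 25 had a window in the table used, 29 windows in all, and 13 of the 29 windows (44.8%) held TAATCC on either strand, where 6.25% of all windows did. Counted by gene this was 13 of the 25 with a window. These were 7 of the 12 of them that were lower at P0, 2 of the 5 tested but not called, and 4 of the 8 not tested. AGGTCA, a motif of nuclear receptors such as Rorb, stood in 8 of the 29 windows (27.6%), where 14% of all windows held it, and TGCTGAC in 2 (6.9%). Of the lists described below, TAATCC stood in 1 of 12 cone windows (8.33%), 2 of 21 bipolar windows (9.52%) and 4 of 33 windows of other regulators (12.1%). AGGTCA stood in 1 (8.33%), 6 (28.6%) and 6 (18.2%) of these, so its share in bipolar genes was like that in rod genes. Whether any factor binds there was not measured.

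**Figure D3:**
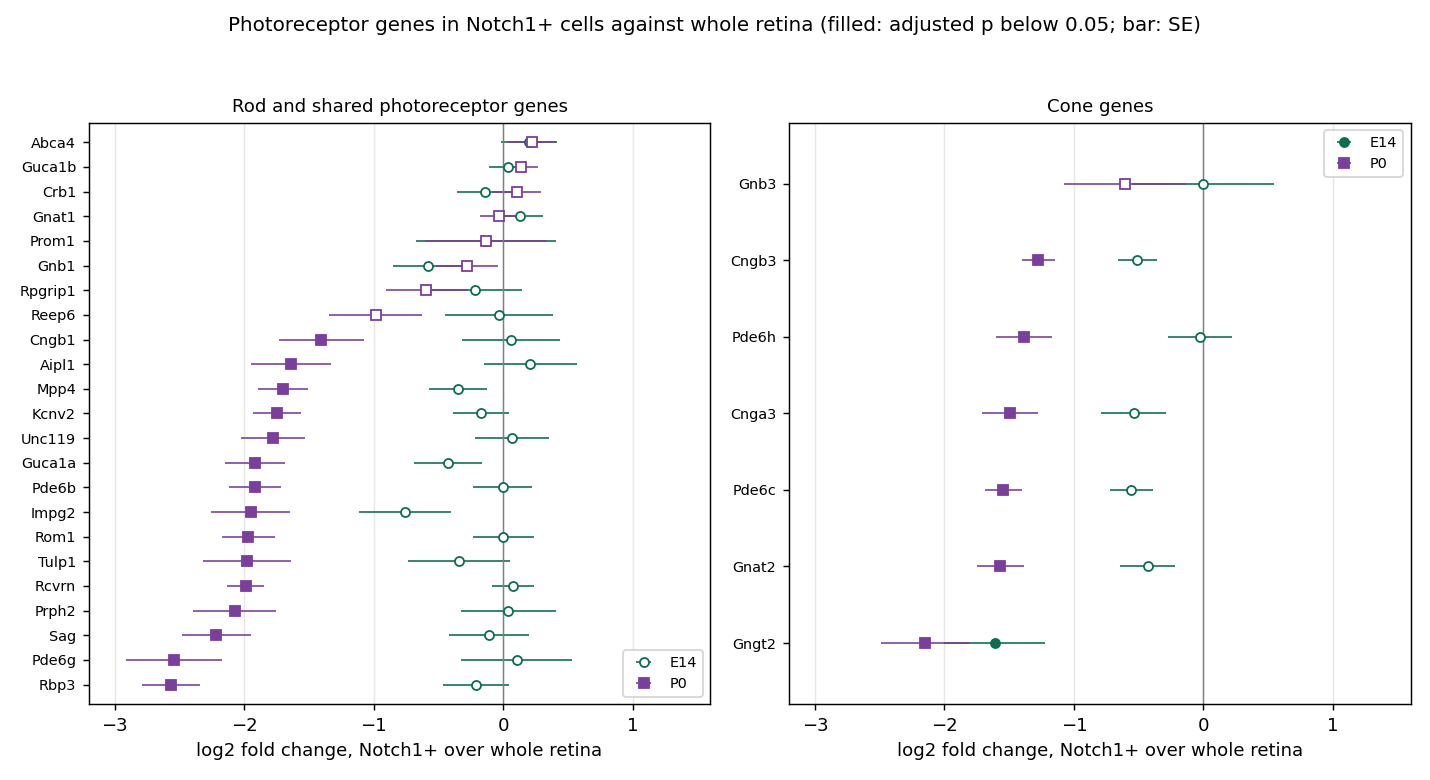
Log2 fold change of Notch1+ cells over whole retina (x axis) at E14 (circles) and P0 (squares) for the 23 tested rod and shared genes (left) and the 7 tested cone genes (right), with SE bars and filled symbols for an adjusted p below 0.05. At P0 most squares lie between -1 and -3, 15 of 23 and 6 of 7 filled, whereas at E14 only Gngt2 is filled.

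Cone genes were lower in Notch1+ cells at P0 as well. Of 13 cone genes all had a probe and 7 were tested, of which 6 were lower in Notch1+ cells at P0 and 0 higher (median -1.495, and -0.90 with the 4 that were above background only in whole retina at their bounds). In whole retina 7 of 7 were lower at E14 (median -1.87, and -1.20 with bounds). Cnga3, Cngb3, Pde6c and Pde6h were above background on P0 whole retina arrays alone. They were tested only because that group showed them, so they had to differ. Both counts thus carry no more than their members' own values. Of all tested probes, 10.7% were lower in Notch1+ cells at P0 and 7.67% lower at E14 in whole retina. Gngt2, a transducin gamma subunit of cones, was the cone gene that was also lower at E14 in Notch1+ cells, at 130.2 ± 25.52 with 1 of 3 arrays above background, against 406.1 ± 126.1 in whole retina (-1.61, SE 0.39, adjusted p = 0.0269). That call held in 11 of 18 other settings and arrays left out. At P0 it was 1023 ± 422.9 against 4547 ± 1580 (-2.15, SE 0.34, adjusted p = 0.000677). Gnat2, the cone transducin alpha subunit, was 194.9 ± 35.37 in P0 Notch1+ cells and 579.9 ± 111.2 in P0 whole retina (-1.57, SE 0.18, adjusted p = 6.58e-05).

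Of 27 other regulators of photoreceptor fate 25 had a probe and 19 were tested. Between Notch1+ cells and whole retina 2 were higher and 1 lower at E14, with 16 not called, and 2 were higher and 2 lower at P0, with 15 not called, where 5.91% and 19.7% of all tested probes were called. At E14, Onecut1, a factor of early-born cells, exceeded whole retina (1.11, SE 0.25, adjusted p = 0.0189), called in 13 of 18 other settings and arrays left out. Rxrg, the retinoid receptor of early cones, was lower (-1.32, SE 0.18, adjusted p = 0.000968), with 1 of 3 Notch1+ arrays above background, called in 17. The other of the 2 higher genes, the nuclear receptor Nr1d1, was above background on no E14 array, so no fold is given. At P0, Olig2, a basic helix-loop-helix factor of progenitors in their last division, was higher (2.20, SE 0.265, adjusted p = 8.62e-05), with 1676 ± 680.7 in Notch1+ cells against 353.3 ± 91.12. Nr1d1 was higher at P0 (1.34, SE 0.225, adjusted p = 0.00102), and Rxrg (-1.92, SE 0.16, adjusted p = 5.17e-06) and Esrrb, an orphan receptor of rods (-0.71, SE 0.21, adjusted p = 0.0301), were lower. The Olig2, Nr1d1 and Rxrg calls at P0 held in 20 of 20 other settings and arrays left out, and that of Esrrb in 13.

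Between the stages, 2 of these 19 regulators were higher and 6 lower at E14 in Notch1+ cells, and 1 higher and 7 lower in whole retina. Rax, an eye field factor that also acts on photoreceptor genes, was lower at E14 in Notch1+ cells (-1.72, SE 0.43, adjusted p = 0.0215), in 13 of 19 other settings. Onecut1 was higher at E14 in Notch1+ cells by 1.31 (SE 0.24, adjusted p = 0.00406), with 1 of 4 P0 arrays above background. For none of the 19 did the Notch1+ to retina ratio differ between the stages at an adjusted p under 0.05 (limma). Of all tested probes 2.47% did.

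Otx2 and Crx are also bipolar cell factors, so bipolar genes were read too. Of 18 genes 17 had a probe and 9 were tested. At P0 0 of the 9 were higher and 3 lower in Notch1+ cells: Gnao1, a G protein subunit that many retinal neurons share (-3.64, SE 0.36, adjusted p = 2.14e-05), Cabp5, a calcium-binding protein of bipolar cells, which was above background only in whole retina and at least 1.38-fold lower in Notch1+ cells (adjusted p = 4.24e-05), and Lhx4, at least 1.25-fold lower (adjusted p = 0.04). The Lhx4 call held in 6 of 19 other settings and arrays left out. Cabp5 and Lhx4 were above background on P0 whole retina arrays alone and were tested only because that group showed them. Of all tested probes 10.7% were lower in Notch1+ cells at P0. At E14 Lhx3 was higher in Notch1+ cells (1.17, SE 0.20, adjusted p = 0.00452), and Gnao1 (-2.40, SE 0.41, adjusted p = 0.00415) and Irx5 (at least 2.13-fold lower, adjusted p = 0.0086) were lower.

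The genes whose pattern was nearest to each factor were named over the 14 arrays by Pearson's r of the log2 values, which the 4 group means dominate. For Otx2 the highest were 2510022D24Rik (0.95), Soga1 (0.95) and Cirbp (0.95), and the lowest was Lrrc66 (-0.96). For Nrl they were Fxyd1 (0.98), Fabp7 (0.965) and Ass1 (0.963), and the lowest was Pde7a (-0.96). For Crx they were Cdkn1a (0.89), Zmat5 (0.88) and Riiad1 (0.87), and the lowest was Ggnbp2 (-0.84). Among the factors themselves, Otx2 and Nrl correlated at 0.71, Crx and Nrl at 0.59, Otx2 and Crx at 0.49, and Nrl and the Rorb probe mMC020088 at -0.63. All of these arrays share the 4 groups, and no correlation was tested.

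**Figure D4:**
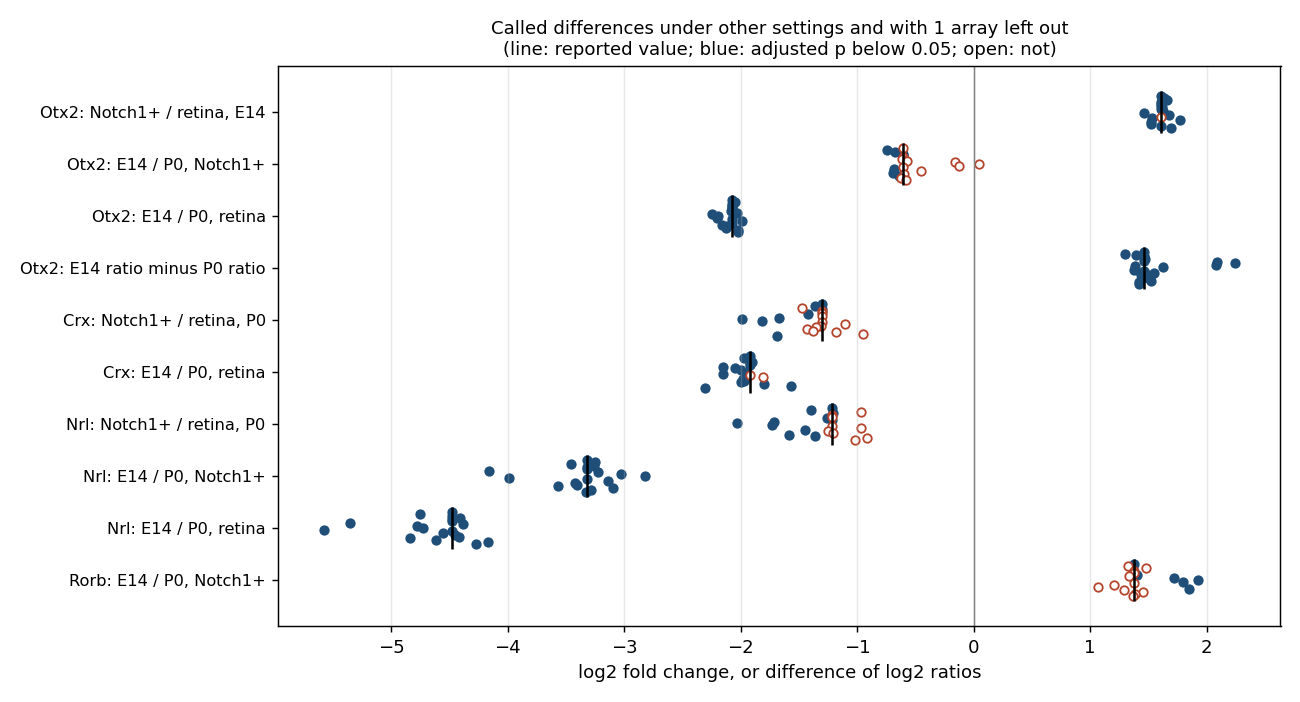
The 10 called differences (y axis; line, the value reported) on the log2 scale (x axis), with a point for each other setting and each array left out, in blue where the adjusted p was below 0.05 and open where it was not. The Otx2 difference at E14, its stage difference and the Nrl stage differences are blue throughout except for 1 Otx2 point at E14. The P0 differences of Crx and Nrl have points of both kinds. So do the stage differences of Otx2 and Rorb in Notch1+ cells and of Crx in whole retina.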

How the data were processed

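Notch1+ cells and whole retina were profiled on single-dye arrays of 70-mer probes. The authors deposited 1 scanner file per array, written by GenePix Pro 4.1.1.4, with unnormalized intensity values per spot, and a table of log2 values. The deposited log2 values were found to be the background-subtracted medians times 1 factor per array (0.613 to 1.41), a scaling whose rule is not given in the sources used here. The study describes the preparations as independent, and the number of arrays limits the precision.

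From the intensities, backgrounds were corrected by normexp (offset 50), the log2 values of 34312 probes were quantile-normalized, and spots flagged as bad were left out. Probes above background on at least 3 arrays (13683) entered 1 limma 3.58.1 model of the 4 group means (R 4.3.3), without a replicate block. Benjamini-Hochberg adjustment ran over all 13683 of them, with 0.05 as the threshold. A bound ("at least") sets a group's mean against the other's lowest intensity above background or, if higher, the probe's own reading, where no array there was above background. Of each list the genes named were, per comparison, up to 4 called genes with the largest change, with others named where the text says why. The factors and the lists were chosen with earlier results of these data known. Other background corrections, scalings, filters, models and the methods' own test, and each array left out, were tried as alternatives. Upstream sequences came from RefSeq (GRCm38.p6), and 0 value columns matched no sample. Some genes of the lists are not reported by name here.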

Additional observations from a re-analysis of the deposited data

Results flagged for a closer look

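For Otx2 (mMC021812), the Notch1+ to retina ratio differed between the stages, by 1.47 on the log2 scale in limma's interaction term (adjusted p = 0.00852). All E14 arrays were scanned on the same day, whereas P0 Notch1+ and P0 whole retina arrays were scanned on separate days. The P0 ratio within this difference therefore cannot be told apart from scan day, and neither can stage. No lone array stood far from its group in the 12 pairs of a probe and a group of 4 that were examined by Dixon's criterion.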

How the results depend on the processing

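Of the 6 tested probes of the factors, the number called for Notch1+ cells over whole retina at E14 was 1, and 0 with the methods' t-test after adjustment. At P0 it was 2, and 4 when scaled to 1 median, 1 with the methods' t-test unadjusted, and 0 with no filter on dim probes, with only the groups compared, with the mark of a second dip as a covariate or with the methods' t-test adjusted. Leaving out 1 array gave 0 to 1. For E14 over P0 in Notch1+ cells it was 3, and 1 with only the groups compared or the adjusted t-test, and 2 or 3 under the others but the block, with 1 to 3 when 1 array was left out. In whole retina it was 3, with 2 to 3 when 1 array was left out. For the stage difference of the ratio it was 1, and 2 when scaled to 1 median, with 1 to 2 when 1 array was left out. Scaling to 1 median moved the median of all tested probes to -0.369 at P0 and 0.256 between the stages in Notch1+ cells. Under it the direction turned at P0 for Otx2 (-0.78), Prdm1 mMC016788 (-0.63) and Rorb mMC020088 (-0.321), and between the stages in Notch1+ cells for Otx2 (0.046) and Prdm1 mMC016788 (0.312), of which Otx2 and Prdm1 at P0 passed the threshold. Its 3 calls between the stages in Notch1+ cells were Nrl and both Rorb probes. The causes were not tested.

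With the replicate number as a block, 1 probe was called at P0 and 1 for E14 over P0 in Notch1+ cells. Deviations of same-numbered samples correlated at -0.056 to 0.084 within a stage and at -0.068 to 0.118 across the stages. Same-numbered samples thus shared little of their spread. This cannot tell whether they came from the same preparation.

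Over all tested probes, the other settings with an adjusted p called 138 to 1740 at E14 (808 as reported), 1231 to 4449 at P0 (2694), 431 to 4444 between the stages in Notch1+ cells (1518), 1054 to 4116 in whole retina (1954) and 161 to 591 for the stage difference (338).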
